A study of Mus musculus with 12 samples.

Results

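Receptor tyrosine kinases are the cell-surface receptors through which growth factors such as EGF, FGF2 and BDNF act on neural progenitors. The 10 receptors described here were Egfr, Erbb2, Erbb3 and Erbb4 of the ERBB family, Fgfr1, Fgfr2 and Fgfr3 of the FGF receptor family, the IGF1 receptor Igf1r, and Ntrk2 and Ntrk3, which encode the neurotrophin receptors TrkB and TrkC. They were taken by symbol, and all 10 were found both among the 22609 genes of the count tables and among the 34993 genes of the FPKM table. Fgfr3 had been chosen by its lower counts at T1, T2 and T3 than at T0 in these same libraries, so its values against T0 are given as a description with no test.

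The libraries came from adherent neural stem (ANS) cells, a culture of mouse neural stem cells that grow attached to the dish and that had been derived from embryos at E14.5. Polyadenylated RNA was sequenced at 4 time points of a differentiation series. At T0 (3 libraries) the cells were proliferating in growth medium with 20 ng/ml FGF2 and 20 ng/ml EGF. At T1 (3 libraries) they had been for 2 days in medium D1, with 10 ng/ml FGF and 2 ng/ml EGF. At T2 (4 libraries) they had been for 2 days in medium B, which held 10 ng/ml FGF2 and 20 ng/ml BDNF and for which no EGF was listed. At T3 (2 libraries, replicates 1 and 4) the cells were sampled 10 days after the change to medium B according to the labels. The study's text instead counts these 10 days from the end of the T2 procedure. No genetic change was listed, and every group was given FGF, at a lower dose after T0, so that the FGF and EGF doses, BDNF, the supplements, replating and time all changed along the series and cannot be told apart as sources of a difference. Whether the replicates were separate derivations of the cells was not stated, so that p-values measure the spread between these libraries.

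A ligand that binds such a receptor brings together 2 receptor chains, whose intracellular kinase domains then phosphorylate each other and dock adaptor proteins that feed the ERK, PI3K and PLCγ pathways. EGF and FGF2 keep neural stem cells dividing in culture, NRG ligands act through ERBB3 and ERBB4, and BDNF and NT3 act through TrkB and TrkC on neurons and glia. ERBB2 has no known ligand and ERBB3 has little kinase activity of its own, so that both work mainly in pairs with other ERBB receptors.

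The part of the kinase domain that all 10 receptors share most closely is the catalytic loop. Its codons are shown for the receptors on which the comparisons turn, because they mark the stretch that truncated isoforms, where a receptor has them, lack. Each run is the sense strand of the gene, 24 bases, 5′ to 3′, read from the NCBIM37 (mm9) genome at an exon of the GENCODE annotation, and the capitals mark the codon of the catalytic aspartate.
Egfr (chr11:16804341-16804364, plus strand, exon 21 of 28): caccgtGACttggcagccaggaat
Erbb3 (chr10:128009589-128009612, minus strand, exon 21 of 28): cataggGACcttgcgctccggaat
Erbb4 (chr1:68127313-68127336, minus strand, exon 21 of 28): catcggGATctggcagcccgcaat
Fgfr1 (chr8:26682816-26682839, plus strand, exon 14 of 18): caccgaGACctggctgctaggaac
Fgfr3 (chr5:34077002-34077025, plus strand, exon 14 of 18): cacagaGACttggctgccagaaac
Ntrk2 (chr13:59161719-59161742, plus strand, exon 16 of 18): caccgtGACctggccacccggaac
Ntrk3 (chr7:85392122-85392145, minus strand, exon 15 of 17): caccggGACctggccacgaggaac
In each of these the window lay within a single coding exon. The loop was encoded by 1 of the 4 annotated coding transcripts of Egfr, by 3 of 4 for Erbb4, by 4 of 7 for Fgfr1, by 5 of 7 for Fgfr3, by 3 of 5 for Ntrk2 and by 1 of 2 for Ntrk3. Truncated TrkB and TrkC forms that lack a kinase are known, but which annotated transcripts encode them was not checked. For Erbb2, Erbb3 and Igf1r every annotated coding transcript encoded the loop. Whether the annotated transcripts without it are complete was not checked. The counts were made per gene, so each value below sums over all transcripts of a gene, with and without the loop where both exist.

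The libraries held between 8910724 and 16631614 gene counts (median 12601169). T0 replicate 3 stood apart from the other T0 libraries. Among 12952 genes, 17.8% differed more than 2-fold between T0 replicate 3 and the mean of T0 replicates 1 and 2, and 5 of the 10 receptors did so, all of them lower in replicate 3. In counts per gene scaled to a common library size (CPM), all 11 astrocyte markers above 3 counts were lower in T0 replicate 3 than in both others, summing to 3150 CPM against 5115 and 5122 CPM, from Gfap at 0.494 against 146 and 148 CPM to Aldoc at 1838 against 2213 and 2109 CPM. Of 12 oligodendrocyte-lineage markers 8 were lower and 0 higher than in both others, with Gpr17 at 0.918 against 102 and 102 CPM and Olig1 at 2266 against 2293 and 2179 CPM. The markers of neural progenitors, 11 of 12 found, summed to between 7526 and 9816 CPM in all 12 libraries. Single ones moved in both directions in T0 replicate 3. Fabp7 was at 2259 against 748 and 804 CPM and Nes at 1815 against 846 and 960 CPM. Sox2 was at 186 against 428 and 427 CPM and Hes5 at 27.1 against 59.9 and 58.4 CPM. All 10 microglial markers had 3 counts or fewer in every library, and endothelial and mesenchymal markers summed to at most 7.12 CPM. Of 12 neuronal markers, Gad2, Slc32a1 and Stmn2 had 3 counts or fewer in every library, also at T3, which the labels call GAD+. Gad1 ranged from 1.20 to 4.03 CPM in the T0 libraries and had 48.3 and 23.9 CPM in T3 replicates 1 and 4. Dcx lay between 1.76 and 8.14 CPM at T0 and between 295 and 421 CPM at T2. The neuronal list summed to 921 to 999 CPM at T0 and to 2083 to 2653 CPM at T2. Compared with T0, edgeR called 0 neuronal markers lower at any later time point. Those called higher numbered 5 among 7 tested for T1, 7 among 8 for T2, and 3 among 9 for T3. Proliferation markers, 11 of 12 found, summed to 2202 to 3754 CPM at T0, 193 to 356 CPM at T1, 244 to 457 CPM at T2 and 689 to 1305 CPM at T3.

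Levels were compared between receptors in FPKM, which divides by transcript length, and between time points in CPM scaled with TMM factors. Egfr was the most abundant receptor by mean FPKM at all 4 time points, also among 58 receptor tyrosine kinase genes (the 10 and 48 others). At T0 it was at 188 ± 11.6 FPKM (SD, n = 3), followed by Fgfr3 at 148 ± 80.2 and Fgfr1 at 128 ± 20.6, and the ranges of these 3 receptors overlapped in pairs of neighbours. The first place of Egfr at T0 rested on T0 replicate 3, where Egfr was at 183 and Fgfr3 at 56.1 FPKM. In T0 replicates 1 and 2 Fgfr3 (204 and 184 FPKM) was above Egfr (201 and 179 FPKM), and by median Fgfr3 came first. Ntrk2 (52.3 ± 23.1) lay below Fgfr1 without overlap. Igf1r (19.0 ± 2.67) and Fgfr2 (14.3 ± 3.72) overlapped each other, as did Erbb2 (9.29 ± 1.29), Ntrk3 (6.61 ± 2.94) and Erbb4 (6.09 ± 4.40). Erbb3 was last at 0.764 ± 0.636 FPKM.

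The order changed after T0. At T1 Egfr (303 ± 10.7 FPKM), Ntrk2 (114 ± 10.3), Fgfr1 (75.3 ± 2.97), Fgfr3 (58.4 ± 11.6) and Erbb4 (35.8 ± 6.12) followed each other without overlap between neighbours (n = 3). At T2 the same 5 receptors led in the same order, with Egfr at 221 ± 65.3 and Ntrk2 at 87.4 ± 13.5 FPKM (n = 4), but Fgfr1 (59.7 ± 12.7) and Fgfr3 (47.5 ± 4.82) then overlapped. At T3 Egfr was at 194 ± 73.7 and Fgfr1 at 58.6 ± 12.5 FPKM (n = 2), and Ntrk2 came after Fgfr1 at 42.2 ± 8.57 FPKM. From Ntrk2 down to Igf1r the neighbours at T3 overlapped. Of the 10 most abundant receptor tyrosine kinases, 6 at T0 and 5 at each later time point belonged to the receptors described here, and the others included Ddr1, Tyro3 and Ryk. The number of FPKM given per CPM differed between libraries, and each receptor had its highest mean at the same time point on both scales in 10 of 10 cases.

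**Figure D1:**
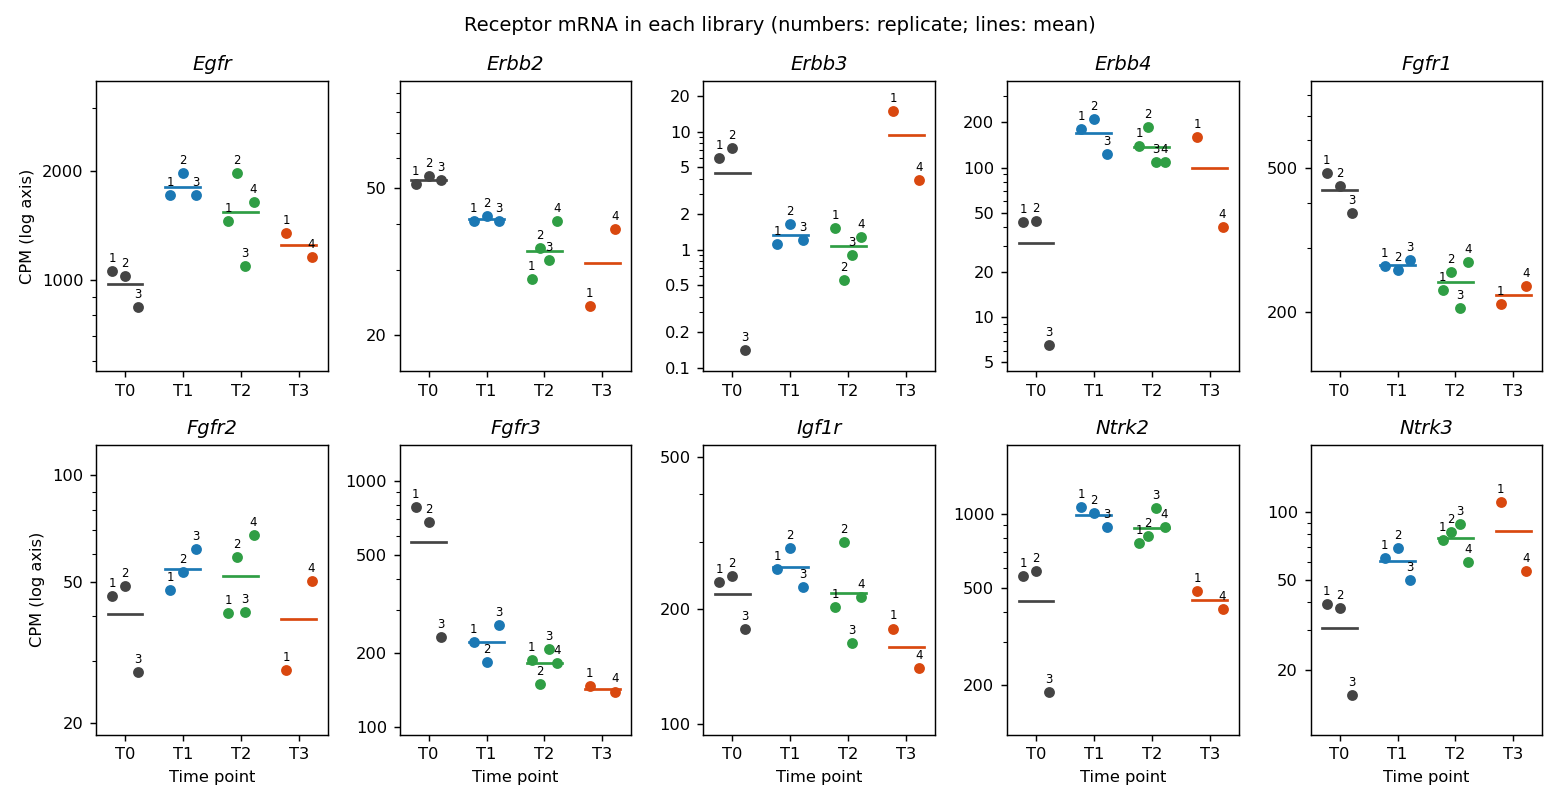
CPM of each receptor (vertical log axis) in every library at T0, T1, T2 and T3, with the replicate number above each point and a line at the mean of the time point. T0 replicate 3 lies far below T0 replicates 1 and 2 for Erbb3, Erbb4, Fgfr3, Ntrk2 and Ntrk3, and the T3 libraries are far apart for Erbb3 and Erbb4.

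In CPM, Egfr and Erbb4 of the ERBB family were higher and Erbb2 was lower in differentiating cells. Egfr, the receptor for EGF, TGFα and amphiregulin, was measured at 1063, 1026 and 842 CPM in the 3 T0 libraries. It was at 1724, 1973 and 1724 CPM at T1, at 1456, 1974, 1094 and 1646 CPM at T2, and at 1349 and 1158 CPM at T3. In CPM every library after T0 was above every T0 library. This was not so in FPKM, where the T0 libraries ranged from 179 to 201. There T2 replicate 3 (138 FPKM) and T3 replicate 4 (142 FPKM) were below all of them. The log2 fold change was 0.88 ± 0.15 (SE) at T1 against T0, and 0.66 ± 0.20 at T2 against T0. Both passed the edgeR quasi-likelihood test with Benjamini-Hochberg adjustment (adjusted p = 0.00580 and 0.0285). At T3 the difference from T0 was 0.37 ± 0.19 and did not pass (edgeR adjusted p = 0.278). The T1 call held without any single library, whereas the T2 call was lost without T0 replicate 2 (edgeR adjusted p = 0.0568) and without T2 replicate 1, 2 or 4 (edgeR adjusted p = 0.0603, 0.0624 and 0.0744).

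Erbb4, a receptor for neuregulins, had the largest log2 rise of the receptors at T1 and T2. Its levels were 43.6, 44.3 and 6.56 CPM at T0. It was 180, 210 and 123 CPM at T1, 140, 187, 108 and 109 CPM at T2, and 160 and 40.1 CPM at T3. The T1 and T2 libraries all lay above T0, whereas T3 replicate 4 lay within the T0 range. Erbb4 rose by 2.43 ± 0.64 (log2, SE) at T1 and by 2.12 ± 0.56 at T2 (edgeR adjusted p = 0.0278 and 0.0166). At T1 the call was lost without T1 replicate 1, 2 or 3 (edgeR adjusted p = 0.0845, 0.0969 and 0.0642), and at T2 it held without any single library. At T3 the difference from T0 was 1.68 ± 0.88 (edgeR adjusted p = 0.283), and 0.36 without T3 replicate 1 and 2.35 without T3 replicate 4. Of 12 oligodendrocyte-lineage markers 8 were higher and 3 lower in T3 replicate 1 than in replicate 4, and their sums were 5322 and 4944 CPM. Gpr17 was at 1350 and 272 CPM, but Olig1, the most abundant of them, was at 3329 and 4259 CPM. The part of this lineage in the Erbb4 values was not tested. In these bulk libraries fewer cells that express a receptor and less receptor RNA per cell cannot be told apart.

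Erbb2, the partner receptor without a known ligand, was the steadiest of the family at T0, at 51.0, 53.7 and 52.4 CPM. It was at 40.7, 41.9 and 40.5 CPM at T1, at 28.4, 34.4, 32.0 and 40.5 CPM at T2, and at 24.0 and 38.6 CPM at T3. No later library reached the T0 range in CPM. In FPKM, T1 replicate 2 (9.24) and T2 replicate 4 (8.90) lay within the T0 range of 7.80 to 10.1. Erbb2 fell by 0.36 ± 0.10 on the log2 scale at T1 (edgeR adjusted p = 0.0362) and by 0.62 ± 0.14 at T2 (edgeR adjusted p = 0.00700), and its T3 value of -0.73 ± 0.24 did not pass (edgeR adjusted p = 0.123). The T1 call was lost without T0 replicate 1 or 2 (edgeR adjusted p = 0.0837 and 0.109) and without T1 replicate 1, 2 or 3 (edgeR adjusted p = 0.138, 0.113 and 0.0953). The T2 call held without any single library.

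Erbb3, the neuregulin receptor with little kinase activity, was near the lower limit of these libraries. It was counted 81, 105 and 2 times at T0, which is 6.05, 7.26 and 0.141 CPM. There were 13, 22 and 20 counts at T1 and 16, 6, 10 and 21 counts at T2, and 180 and 36 counts at T3 (15.0 and 3.88 CPM). Both T3 libraries were above every T1 and T2 library, and T0 replicate 3 was below all of them. At T1 and T2 the log2 differences from T0 were -1.76 ± 0.97 and -2.04 ± 0.86 and did not pass (edgeR adjusted p = 0.200 and 0.0869). With all libraries kept, DESeq2 called Erbb3 lower at T2 (log2 -2.06, DESeq2 adjusted p = 0.0414) but not at T1 (DESeq2 adjusted p = 0.135). Without T0 replicate 3 the edgeR differences at T1 and T2 were -2.33 and -2.60 and passed (edgeR adjusted p = 7.8e-05 and 6.3e-05). The difference of T3 from T0 was 1.09 ± 1.19 (edgeR adjusted p = 0.599), and -0.20 without T3 replicate 1.

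Within the family, Egfr made up between 78.9% and 94.2% of the summed ERBB FPKM of a library. The share of Erbb4 was 0.572% to 4.73% at T0, 9.44% to 11.8% at T1, 9.78% to 18.2% at T2 and 7.36% to 9.71% at T3. Its share at each later time point lay above the T0 range. Erbb2 made up 3.59% to 5.22% at T0 and at most 3.32% afterwards.

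**Figure D2:**
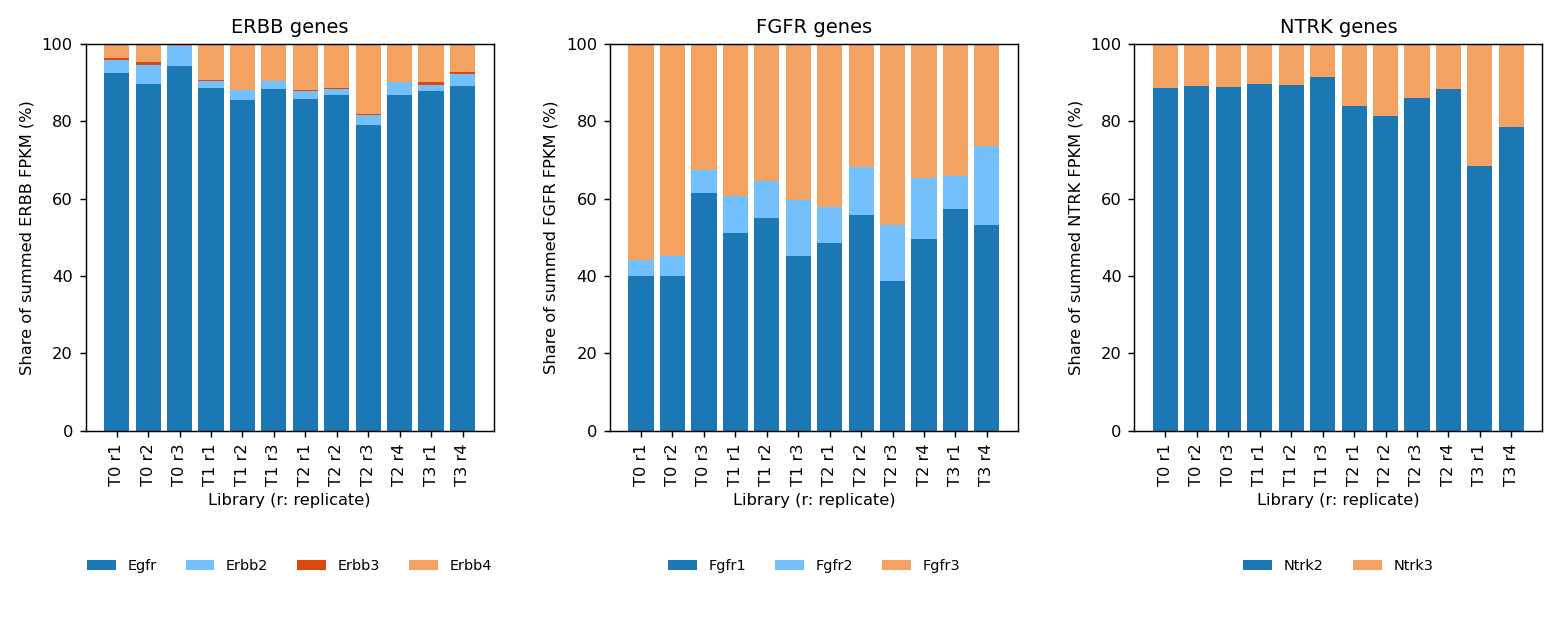
Stacked bars give the share (%, vertical axis from 0 to 100) of each gene in the summed FPKM of its family in each of the 12 libraries, for the ERBB, FGFR and NTRK genes. The share of Erbb4 is larger in every library after T0 than in the T0 libraries, and Ntrk3 takes its largest shares, 21.4% to 31.5%, at T3.

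Of the FGF receptors, Fgfr1 was lower at every time point after T0. Fgfr1, the main receptor for FGF2 in neural stem cells, was at 485, 446 and 375 CPM at T0. It was at 268, 260 and 279 CPM at T1, at 230, 258, 205 and 275 CPM at T2, and at 210 and 236 CPM at T3. The lowest T0 library was above every later library. The log2 difference from T0 was -0.71 ± 0.13 (SE) at T1. It was -0.84 ± 0.14 at T2 and -0.95 ± 0.19 in the T3 libraries, and all 3 passed (edgeR adjusted p = 0.00880, 0.00198 and 0.0499). Only the T2 call held without any single library. At T1 the call was lost without T1 replicate 1 or 2 (edgeR adjusted p = 0.0524 and 0.0515). At T3 it was lost without T0 replicate 1 or 2 (edgeR adjusted p = 0.148 and 0.161) and without T3 replicate 1 or 4 (edgeR adjusted p = 0.335 and 0.135). Fgfr1 shares 125 exonic bases with the antisense gene Gm16159, and the strand setting of the counting was not stated.

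Fgfr3, an FGF receptor of ventricular-zone progenitors and astrocytes, was the receptor listed for its lower level after T0. It was at 781 and 682 CPM in T0 replicates 1 and 2, but at 231 CPM in T0 replicate 3. It was at 221, 183 and 259 CPM at T1, at 186, 149, 207 and 182 CPM at T2, and at 147 and 139 CPM at T3. T0 replicate 3 thus lay inside the T1 range and above the T2 and T3 libraries. The described log2 differences from T0 were -1.36 ± 0.42 (SE) for T1, -1.64 ± 0.35 for T2 and -1.97 ± 0.54 for T3. In the comparisons that the choice of Fgfr3 did not use, the difference was -0.28 ± 0.13 at T2 against T1 (edgeR adjusted p = 0.456) and -0.33 ± 0.14 at T3 against T2 (edgeR adjusted p = 0.257), and neither passed. The astrocyte markers were lower in T0 replicate 3 too, with Aqp4 at 87.6, 90.6 and 7.69 CPM. After T0, 0 of 11 tested were called lower and 2 higher at T1 (median log2 difference 0.31). At T2 2 were lower and 2 higher (0.41), and at T3 0 were called (-0.14). These calls included T0 replicate 3. Beside T0 replicates 1 and 2 alone, single markers lay on both sides at T1. Aqp4 was then lower, at 27.4, 23.7 and 35.8 CPM. Slc4a4 was higher, at 102, 132 and 97.8 CPM against 55.7 and 60.4 CPM. The part of the astrocyte markers in the Fgfr3 values was not tested.

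Fgfr2 showed no called difference in any comparison. It was at 45.8, 48.6 and 27.8 CPM at T0, at 47.6, 53.4 and 62.0 CPM at T1, at 41.0, 58.8, 41.2 and 67.8 CPM at T2, and at 28.2 and 50.5 CPM at T3. All groups overlapped. The log2 differences from T0 were 0.40 ± 0.23, 0.36 ± 0.25 and -0.04 ± 0.35 at T1, T2 and T3 (edgeR adjusted p = 0.210, 0.267 and 0.953). The annotated Fgfr2 locus spans 3009069 bases and shares 314 exonic bases with Ctbp2 on the same strand, so reads there could be split between these genes. In the family, Fgfr2 made up 4.29% to 5.91% of the FGFR FPKM at T0 and 8.74% to 20.3% afterwards. This sum, which holds Fgfr3, chosen for its fall, was 172 to 365 FPKM at T0 and 93.3 to 175 FPKM afterwards. Fgfr2 itself averaged 14.3, 17.3, 16.0 and 14.6 FPKM at T0, T1, T2 and T3, so its share moved mainly through the sum. The share of Fgfr3 was 32.7% to 55.8% at T0 and 26.5% to 46.8% in the later libraries, with overlap.

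Igf1r, the receptor for IGF1 and IGF2, had overlapping groups in all 5 comparisons made. It was at 235, 245 and 178 CPM at T0, at 254, 290 and 229 CPM at T1, at 202, 300.0, 163 and 216 CPM at T2, and at 178 and 141 CPM at T3. The log2 differences from T0 were 0.22 ± 0.16, 0.01 ± 0.21 and -0.45 ± 0.22 at T1, T2 and T3, and none passed (edgeR adjusted p = 0.322, 0.971 and 0.254). The T1 and T3 libraries, which were not compared, did not overlap, and a p above the threshold does not show that levels were equal.

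The neurotrophin receptors were higher at T2 than at T0. Ntrk2, which encodes the BDNF receptor TrkB, was at 559, 584 and 189 CPM at T0. It was at 1067, 1010 and 889 CPM at T1, at 765, 818, 1055 and 889 CPM at T2, and at 485 and 410 CPM at T3. The T1 and T2 libraries were all above T0, and the T3 libraries lay within the T0 range. Ntrk2 rose by 0.99 ± 0.35 (log2, SE) at T2 against T0 (edgeR adjusted p = 0.0494). At T1 the value was 1.14 ± 0.40 and did not pass (edgeR adjusted p = 0.0649), but without T0 replicate 3 it was 0.78 and passed (edgeR adjusted p = 0.00036). The T2 call was lost without T2 replicate 1, 2, 3 or 4 (edgeR adjusted p = 0.0778, 0.0873, 0.113 and 0.0984). At T3 the difference from T0 was 0.02 ± 0.48 (edgeR adjusted p = 0.983).

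Ntrk3, which encodes the NT3 receptor TrkC, was at 39.3, 37.8 and 15.5 CPM at T0. It was at 63.1, 69.6 and 50.4 CPM at T1, at 75.4, 82.1, 88.8 and 60.5 CPM at T2, and at 111 and 55.0 CPM at T3. Every later library was above every T0 library. The rise at T2 was 1.32 ± 0.31 on the log2 scale (edgeR adjusted p = 0.00949), and it held without any single library. At T1 and T3 the values were 0.97 ± 0.34 and 1.44 ± 0.48 and did not pass (edgeR adjusted p = 0.0678 and 0.130). Without T0 replicate 3 the T1 value was 0.65 and passed (edgeR adjusted p = 0.0037). Ntrk3 made up 10.9% to 11.5% of the NTRK FPKM at T0, 8.60% to 10.7% at T1, 11.5% to 18.7% at T2 and 21.4% to 31.5% at T3.

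**Figure D3:**
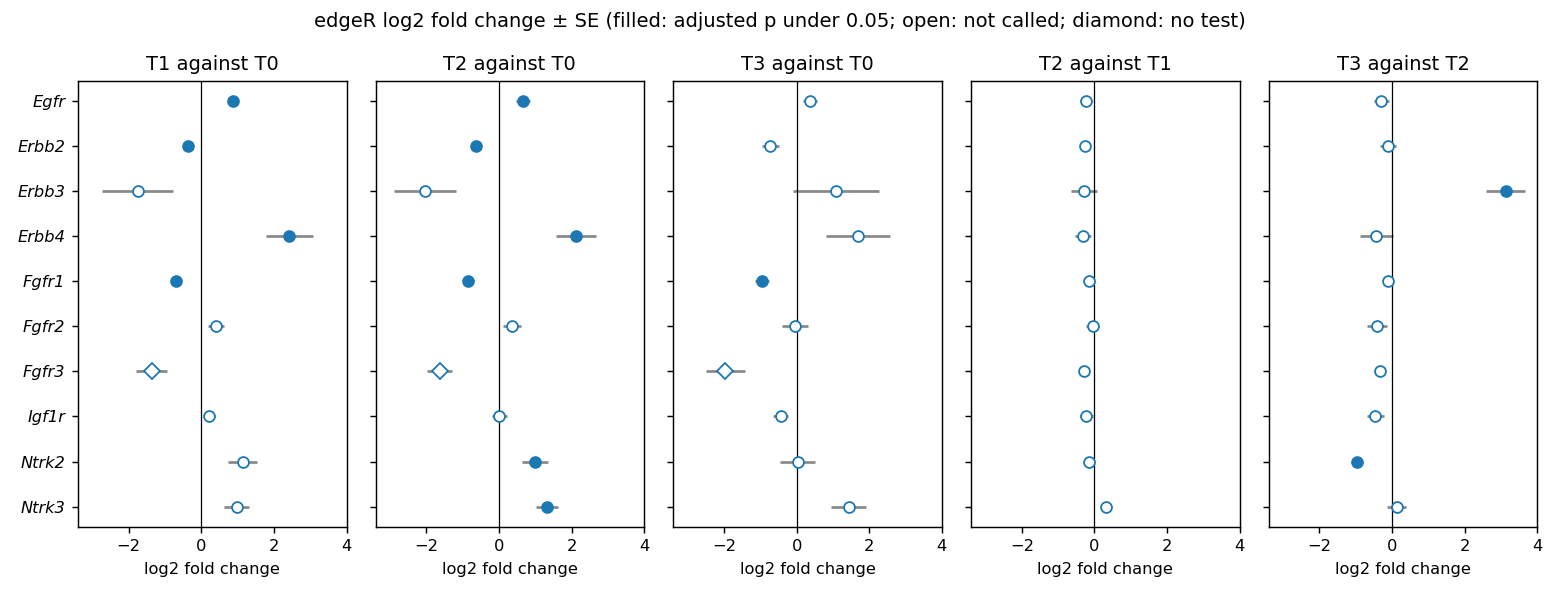
edgeR log2 fold change (horizontal axis, with bars of 1 SE) of each receptor in the 5 comparisons, filled where the adjusted p was under 0.05, open where it was not, and a diamond for Fgfr3 against T0, which was not tested. Fgfr1 is filled and below 0 in all 3 comparisons with T0, and no receptor is filled for T2 against T1.

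Counted over the 9 receptors that could be tested against T0, 2 fell (Erbb2, Fgfr1) and 2 rose (Egfr, Erbb4) at T1, where 16.8% of 12364 genes fell and 15.1% rose. At T2 the same 2 fell and 4 rose (Egfr, Erbb4, Ntrk2, Ntrk3), beside 21.8% and 21.4% of 12607 genes. At T3 1 fell (Fgfr1) and 0 rose, beside 1.41% and 3.31% of 12721 genes, and for all genes 3350 had an unadjusted p under 0.05. DESeq2 called 1 receptor higher at T3, Ntrk3 (DESeq2 adjusted p = 0.0266). The median log2 difference over the 9 receptors was 0.40, 0.36 and 0.02 at T1, T2 and T3, and over all genes tested it was -0.0082, 0.0023 and -0.015. In CPM the groups did not overlap for 2 receptors downward and 4 upward at T1 (27.2% and 29.1% of all genes). The numbers were the same at T2 (26.6% and 27.6%), and 2 in each direction at T3 (25.5% and 24.6%). These 3 comparisons share the T0 libraries.

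The step from medium D1 to medium B, where EGF was no longer listed and BDNF was added, gave no called receptor. At T2 against T1, 0 of 10 fell and 0 rose by edgeR, as by DESeq2, beside 0.0565% and 0.573% of 12382 genes, and 1444 genes had an unadjusted p under 0.05. The T1 and T2 libraries of all 10 receptors overlapped, beside 5.52% of genes apart downward and 6.52% apart upward. The values nearest to the threshold were a log2 difference of -0.27 ± 0.11 for Erbb2 and 0.33 ± 0.14 for Ntrk3 (edgeR adjusted p = 0.397 and 0.402). Same-numbered T1 and T2 libraries deviated together, and within the 3 pairs Erbb2, Erbb4, Fgfr1 and Fgfr3 were lower at T2 in every pair and Ntrk3 was higher, beside 22.6% of 12952 genes lower and 20.5% higher in every pair. With the replicate number as a block none of them passed, at a log2 difference of -0.29 for Fgfr3, -0.38 for Erbb2 and 0.44 for Ntrk3 (edgeR adjusted p = 0.0552, 0.0790 and 0.112). Without the block, Egfr differed by -0.22 ± 0.17 (edgeR adjusted p = 0.674) and Ntrk2 by -0.16 ± 0.12 (edgeR adjusted p = 0.668).

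Between T2 and T3, Erbb3 rose and Ntrk2 fell. Of the 10 receptors 1 fell and 1 rose, beside 0.691% and 0.5% of 12599 genes. Erbb3 was 3.13 ± 0.53 (log2, SE) higher at T3 (edgeR adjusted p = 0.0444), from 6 to 21 counts at T2 to 180 and 36 at T3, and Ntrk2 was lower by a log2 difference of -0.97 ± 0.16 (edgeR adjusted p = 0.0437). The groups did not overlap for these receptors nor for Fgfr3, which was lower (12.9% of genes were apart downward and 12.7% upward). Both calls were lost without T2 replicate 1, 2, 3 or 4, where the edgeR adjusted p was 0.0987, 0.0794, 0.117 and 0.149 for Erbb3 and 0.0874, 0.0676, 0.0921 and 0.149 for Ntrk2. Ntrk2 was also lost without T3 replicate 4 (edgeR adjusted p = 0.0863). Without T3 replicate 1 the Erbb3 difference was 1.83, and Erbb4 was then called lower by a log2 difference of -1.76 (edgeR adjusted p = 0.0125), which it was not with both T3 libraries (-0.44 ± 0.46, edgeR adjusted p = 0.700). Oligodendrocyte-lineage markers, 14 of 15 found, summed to 3579 to 4450 CPM at T2 and 4944 to 5322 CPM at T3, with Mag and Bmp4 at 3 counts or fewer in every library. Of these sums Olig1 held 2632 to 3086 CPM at T2 and 3329 and 4259 CPM at T3. Of 9 markers tested, 0 were called in either direction. The part of this lineage in the Erbb3 difference was not tested.

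The pathway lists are counted below beside the same shares of all genes as above (16.8% lower and 15.1% higher at T1, 21.8% and 21.4% at T2, 1.41% and 3.31% at T3). Genes that averaged under 1 CPM at T0 could be called almost only as higher, so they are counted apart. Among the ligands, Areg fell at T1 and T2 and Tgfa rose at T2. Of 11 EGF-family ligands listed, 1 of 6 tested fell and 1 rose at T1, and 1 of 7 fell and 2 rose at T2. The rise at T1 was that of Nrg2, which averaged under 1 CPM at T0, and 1 of the 2 rises at T2 was also of such a gene. Areg, which encodes the EGFR ligand amphiregulin, was at 44.2, 38.6 and 61.5 CPM at T0 and between 2.56 and 2.83 CPM at T1. At T2 it lay between 2.14 and 3.01 CPM, and the fall was -4.14 ± 0.23 (log2, SE) at T1 and -4.23 ± 0.22 at T2 (edgeR adjusted p = 0.00037 and 3.7e-05). At T3 Areg was at 0.665 and 9.60 CPM. Tgfa, which encodes TGFα, rose at T2 by 0.73 ± 0.19 (edgeR adjusted p = 0.0142), from 19.4 ± 4.69 to 32.1 ± 3.06 CPM. The neuregulin genes Nrg1 and Nrg3 had 3 counts or fewer in every library.

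Of 22 FGF genes listed, 16 had 3 counts or fewer in every T0 library, Fgf2 among them at all time points. Of those tested, 3 of 5 at T1 and 5 of 7 at T2 and T3 averaged under 1 CPM at T0, and of these 3, 5 and 2 were called higher. Of the other 2 genes, 0 were called at T1 and 1 rose at T2 and at T3. Fgf1, an FGF that binds all FGF receptors, was at 64.0 ± 1.82 CPM at T0 and 118 ± 25.3 CPM at T3 (log2 0.90 ± 0.18, edgeR adjusted p = 0.0491). Fgf17 rose at T2 (0.406 ± 0.230 to 3.55 ± 1.30 CPM). Fgf12 is an FGF-related gene whose protein stays in the cell and modulates sodium channels. By counts it rose from 0.261 ± 0.0741 CPM at T0 to 3.38 ± 0.476 CPM at T2. Between T1 and T2 it rose by 1.60 ± 0.25 on the log2 scale (edgeR adjusted p = 0.0274). Its T0 libraries held only 3, 5 and 3 counts. The FPKM values did not show this rise. They were 1.10, 0.941 and 1.12 at T0, 0.188, 2.08 and 0.918 at T1, and 0.858, 1.60, 0.620 and 2.23 at T2. Fgf7 was at the limit of 3 counts at T0 and at least 4.74-fold higher at T2.

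In the IGF axis, 16 genes with ligands, binding proteins and substrates, 2 of 10 tested fell and 1 rose at T1, and 2 of 11 fell and 1 rose at T2. Igfbp2, a secreted IGF-binding protein, fell from 854 ± 120 CPM at T0 to 227 ± 29.2 CPM at T1 (log2 -1.92 ± 0.16, edgeR adjusted p = 0.00054) and was at 281 ± 13.7 CPM at T2. Igf2r, the scavenger receptor that takes up IGF2 and whose locus the antisense gene Airn overlaps, fell from 9.39 ± 6.15 to 3.22 ± 0.505 CPM at T1 (log2 -1.55, or -0.88 without T0 replicate 3, which was at 16.4 CPM against 5.15 and 6.57), and Irs4, an insulin receptor substrate, rose from 4.97 ± 2.47 to 13.8 ± 3.22 CPM. At T3 against T0, 0 of 11 were called.

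Of 10 neurotrophin genes and their other receptors, rises were called for 2 of 4 tested at T1, for 3 of 5 at T2 and for 1 of 5 at T3, and 0 fell. The rises at T2 included Ngfr, which averaged under 1 CPM at T0. Bdnf, the TrkB ligand that was also in medium B, had 12.4, 12.4 and 10.9 CPM in the T0 libraries. It had 22.5, 29.1 and 25.6 CPM at T1, where medium D1 held no listed BDNF. The rise was 1.10 ± 0.16 (log2, SE) at T1 and 1.22 ± 0.14 at T2 (edgeR adjusted p = 0.00299 and 0.00035). Sorcs2, a co-receptor of the sortilin family for proneurotrophins, rose by 4.58 ± 0.23, 5.21 ± 0.30 and 5.51 ± 0.33 at T1, T2 and T3, from 1.08 ± 0.236 CPM at T0 to 26.0 ± 3.10 CPM at T1. Ntf3, which encodes the TrkC ligand NT3, had 3 counts or fewer in every library.

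**Figure D4:**
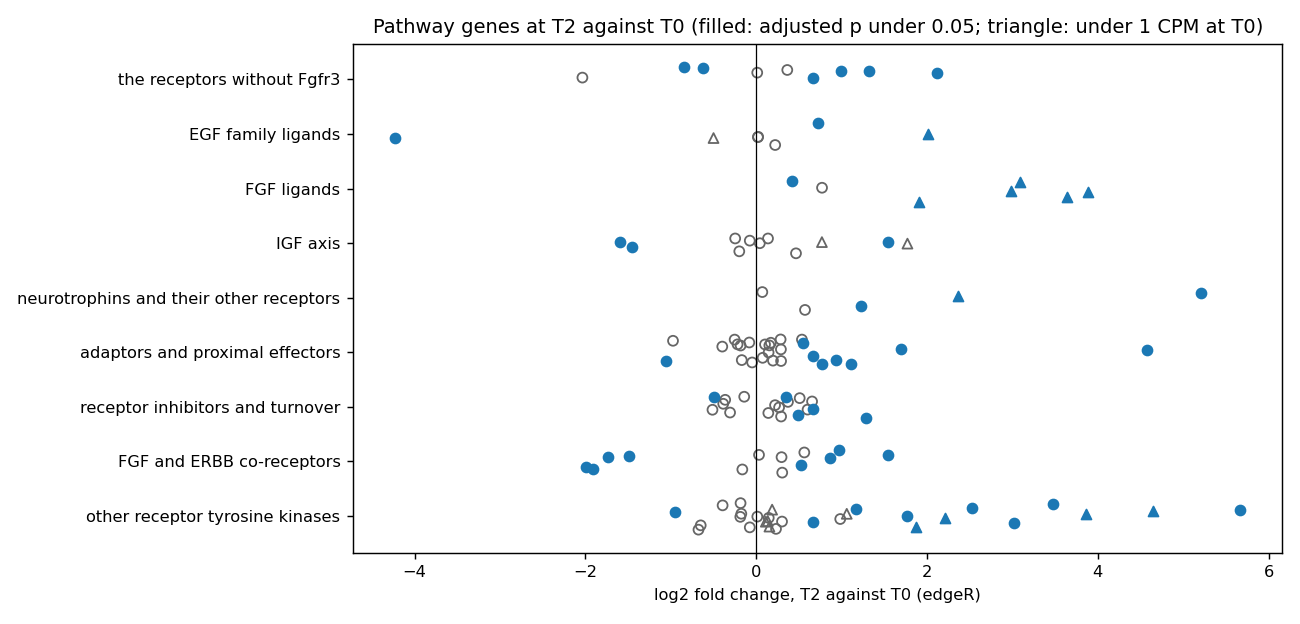
edgeR log2 fold change at T2 against T0 (horizontal axis) of the receptors without Fgfr3 and of the tested genes of each pathway list, filled where the adjusted p was under 0.05, with triangles for genes that averaged under 1 CPM at T0. Areg lies farthest to the left at -4.23 and Ephb1 farthest to the right at 5.67, and 5 of the 7 FGF genes are triangles.

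Among the adaptors inside the cell, Shc1 fell and Shc4 and Grb10 rose. Of 29 adaptors and proximal effectors, 1 of 26 tested fell and 8 rose at T1, 1 fell and 7 rose at T2, and 0 fell and 1 rose at T3. Shc1, an adaptor that links these receptors to RAS, fell from 15.9 ± 0.916 to 7.69 ± 0.886 CPM at T1 and stayed at 7.66 ± 0.925 CPM at T2 (log2 -1.06 ± 0.16 for both, edgeR adjusted p = 0.00429 and 0.00113). Its relative Shc4 rose from 20.1 ± 5.83 to 60.1 ± 1.16 CPM at T1 and 64.7 ± 9.61 CPM at T2. Grb10, an adaptor that restrains insulin and IGF1 receptors, rose from 1.05 ± 0.852 CPM at T0 to 25.2 ± 1.28 CPM at T2.

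Among 19 inhibitors and turnover genes, 1 of 18 tested fell and 5 rose at T1, 1 fell and 4 rose at T2, and 0 were called at T3 against T0. Il17rd, which encodes the FGF-signalling inhibitor SEF, was at 81.1, 83.1 and 111 CPM at T0, at 310, 354 and 222 CPM at T1, at 199 to 260 CPM at T2 and at 110 and 76.6 CPM at T3. The rise at T1 was 1.68 ± 0.21 (log2, SE, edgeR adjusted p = 0.00193) and the fall from T2 to T3 was -1.24 ± 0.17 (edgeR adjusted p = 0.0297). Fgfrl1, an FGF receptor relative without a kinase domain, fell from 197 ± 11.9 to 124 ± 17.7 CPM at T1. Erbb2ip, which encodes the ERBB2-binding protein Erbin, rose from 189 ± 11.7 to 278 ± 19.0 CPM at T1, and Lrig2 rose at T2 from 31.3 ± 10.3 to 49.5 ± 5.75 CPM.

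Of 19 co-receptors, 4 of 13 tested fell and 3 rose at T1, 4 fell and 4 rose at T2, and 1 of 14 fell and 2 rose at T3. The rises at T3 included Flrt1, which averaged under 1 CPM at T0. Cd44, a hyaluronan receptor that works with ERBB receptors, fell from 133 ± 3.36 to 29.1 ± 3.63 CPM at T1 (log2 -2.20 ± 0.13, edgeR adjusted p = 0.00037). The heparan sulphate proteoglycans moved in both directions, with Gpc6 falling from 13.7 ± 1.46 to 2.28 ± 0.717 CPM and Gpc1 rising from 125 ± 9.91 to 269 ± 43.9 CPM at T1. Sdc4 was lower at T3 (19.3 ± 5.38 CPM) than at T0 (55.0 ± 1.58 CPM). Flrt3, a membrane protein that binds FGF receptors, rose from 10.5 ± 3.11 to 24.3 ± 3.77 CPM at T1.

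Of the 48 other receptor tyrosine kinases, 1 of 25 tested was lower and 9 higher at T1, 1 of 29 lower and 11 higher at T2, and 0 of 28 lower and 4 higher at T3. Among those that averaged at least 1 CPM at T0, 1 of 19 was lower and 7 higher at T1, 1 of 20 lower and 7 higher at T2, and 0 of 20 lower and 2 higher at T3. Ephb1, an ephrin receptor, was at 2.54, 2.84 and 2.96 CPM at T0, at 103, 147 and 40.0 CPM at T1, at 120 to 179 CPM at T2, and at 31.2 and 20.8 CPM at T3. Its rise at T2 was 5.67 ± 0.20 (log2, SE, edgeR adjusted p = 7.6e-06), and its fall from T2 to T3 was -2.43 ± 0.23 (edgeR adjusted p = 0.0117). Ephb2 rose at T1 from 12.1 ± 7.25 to 180 ± 38.9 CPM and Ephb4 fell from 42.1 ± 2.63 to 23.6 ± 1.01 CPM. Tyro3, a receptor of the TAM family, fell between T2 and T3 from 285 ± 28.0 to 177 ± 15.0 CPM (log2 -0.68 ± 0.13, edgeR adjusted p = 0.0493). Of the pathway genes named here, the calls at T1 of Igf2r, Irs4, Grb10, Fgfrl1, Erbb2ip and Flrt3, those at T2 against T0 of Igf2r and Lrig2, and every named call at T3 or between T1 and T2 were lost without at least 1 single library. Over all lists together, which held 106 tested genes at T1 and 115 at T2 and T3, 10 fell and 32 rose at T1, 10 fell and 38 rose at T2, and 1 fell and 12 rose at T3. Without the genes under 1 CPM at T0 these were 10 and 26 of 95, 10 and 27 of 96, and 1 and 6 of 96. Without T0 replicate 3, all tested genes counted, they were 18 and 45, 19 and 51, and 6 and 25.

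The genes with the pattern most like each receptor were found by Pearson's r of log2 CPM over the 12 libraries among 11530 genes, as a description in which all genes share the libraries and their depth. Erbb4 was followed most closely, with r = 0.99 for Lrrcc1, Eif2c4 and Rnf157. Ntrk3 was followed by Lmtk3, Gpr85 and Shisa7 and Ntrk2 by Tec, March4 and Nrbp2, all with r = 0.99 after rounding. For Fgfr3 the leading genes were Dak (r = 0.97), Cd163 and Ttyh3 (both 0.96), and for Fgfr1 Fuk (0.98), Smad5 and Fut10 (both 0.97). Egfr was nearest to Cdc42bpb, Gsk3b and Jak1 (0.96, 0.96 and 0.95). Erbb3 had the loosest likeness, with Zcchc24 at 0.90 and Rab11fip4 and Lbh at 0.88.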

How the data were processed

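RNA was extracted with Trizol, and libraries were made with the TruSeq RNA kit v2 and sequenced on a HiScanSQ instrument. Per the labels, the submitters' processing notes name CASAVA 1.8, TopHat2 2.0.6, Bowtie 0.12.7.0, HTSeq 0.6.0 and DESeq2 1.0.0, and the mm9 build. The authors deposited 12 tables of raw read counts per gene and 1 table of FPKM values per gene. The tool that made the FPKM values and the strand setting of the counting are not given in the sources used here, and all sample columns of the FPKM table were used.

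The counts were analysed in R 4.3.3 with edgeR 4.0.16 (filterByExpr, TMM factors, quasi-likelihood test, 2 groups per fit, adjusted p under 0.05). Entries that name no gene were left out. CPM values use TMM-scaled library sizes, and log2 CPM a prior count of 2. DESeq2 1.42.0 was an alternative, beside RLE factors, no filter on low counts, 1 fit of all 12 libraries, a replicate block, and each replicate left out. On the FPKM scale log2(FPKM + 0.1) was tried beside log2(FPKM + 1). The fit was tested on simulated data. No pair of libraries agreed within sampling noise.

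Samples with the same number were regarded as possible pairs only where every correlation of their deviations was over 0.1. Among comparisons that share several numbers this held only for T2 and T1 (0.32, 0.47 and 0.23), from the data and not from the labels. The main fit of T2 against T1 was still unpaired, and the replicate block was given beside it as an alternative. T3 and T0 share only replicate 1 (0.49), so no pairing could be used there. Correlations between libraries of different numbers were not computed.

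The 10 receptors were all named. From each pathway list up to 2 genes per direction and comparison were named, those with the largest called differences among genes whose groups were apart and whose log2 CPM averaged 1 or more. For likeness the 3 genes with the highest r were named. The receptors and the lists were chosen with earlier results of these data known. Sequences were read from the NCBIM37 genome with GENCODE vM1 transcripts.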

Additional observations from a re-analysis of the deposited data

How the results depend on the processing

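Directions mostly held, whereas the number of receptors past the threshold depended on the setting. At T1 against T0, 2 receptors were lower in the analysis reported, and 1 without the filter on low counts, in 1 fit of all 12 libraries or with the replicate block. For the rises at T1, 2 became 4 with DESeq2, in 1 fit of all 12 libraries, with the replicate block, or with libraries 1 and 2 only. At T2 against T0, 2 falls became 3 with DESeq2, and 4 rises became 2 with the replicate block. At T3 against T0, 1 fall became 2 in 1 fit of all 12 libraries, and 0 rises became 1 with DESeq2 or in 1 fit of all 12 libraries. At T3 against T2, the 1 fall and the 1 rise both became 0 in 1 fit of all 12 libraries and with the replicate block.

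Leaving out a single library gave 0 to 3 falls and 1 to 4 rises at T1 against T0, 2 to 3 falls and 2 to 4 rises at T2 against T0, 0 to 1 falls and 0 rises at T3 against T0, and 0 to 2 falls and 0 to 1 rises at T3 against T2. Over all pathway lists, leaving out T0 replicate 3, an alternative chosen after seeing the data, gave 18 in place of 10 falls at T1, 19 in place of 10 at T2, and 6 falls and 25 rises in place of 1 and 12 at T3. At T2 against T1 the counts were 0 and 0 under every setting run, the replicate block included, and there the block changed no call.

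The sign turned only for log2 differences that were not called as reported. Igf1r at T2 against T0 was at -0.0172 without the filter, -0.000408 with DESeq2, -0.0228 with the replicate block, and -0.17 to 0.13 without single libraries (-0.12 without T0 replicate 3, -0.17 without T2 replicate 2). At T3 against T0, Fgfr2 ranged from -0.52 to 0.32 (positive without T0 replicate 1, T0 replicate 2 or T3 replicate 1, at 0.05, 0.11 and 0.32), Ntrk2 from -0.34 to 0.27 (negative without T0 replicate 3 or T3 replicate 1, at -0.34 and -0.10), and Erbb3 from -0.20 without T3 replicate 1 to 1.74. At T2 against T1, Fgfr2 ranged from -0.21 to 0.0620 (0.0620, 0.0440 and 0.0434 without T1 replicate 3, T2 replicate 1 and T2 replicate 3). At T3 against T2, Erbb2 was at 0.19 without T3 replicate 1 and -0.50 without replicate 4, Ntrk3 at -0.47 and 0.53, and Erbb4 at -1.76 and 0.23. The causes were not tested.

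For T1 against T0, T2 against T0 and T3 against T2, where the replicate block was run, the libraries share only a number. For T3 against T0 no replicate block could be fitted, since only replicate 1 is shared. Depth limited Erbb3, with 2 to 180 counts per library, and groups left with 1 T3 library were assumed to vary like the others.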
